A study of Mus musculus with 16 samples.

Results

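The 9 genes described here are markers of pigmented cells that were measured in bulk RNA-seq libraries of mouse retina. They are Tyr, Tyrp1, Dct, Pmel, Mlana, Slc45a2, Mitf, Best1 and Ttr, chosen by name as genes of melanin production or of the retinal pigment epithelium, to gauge how much of that tissue came along with each retina. All 9 were found by symbol among the 54532 genes of a table of uninjected retinas, and by the same gene identifier among the 48440 genes of a table of injected retinas. The uninjected retinas came from C57BL6/J mice that were wild type at 12 months (n = 3), carried a point mutation of Elovl2 at 12 months (n = 3), or were wild type at 18 months (n = 4). The injected retinas were wild type at 18 months and were taken 5 days after 24:5, a polyunsaturated fatty acid, had been injected into the vitreous at 0.36 nmol (n = 3), or vehicle had been given to the fellow eye (n = 3). Elovl2 encodes an enzyme that lengthens polyunsaturated fatty acids, and the labelled genotype gives the substitution as C34W where the design text has C234W. The labels call the tissue bulk retina. Neither the animals behind the libraries nor the pairs of fellow eyes are named there, so a p-value here reflects the spread over libraries, part of which may be technical.

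The retinal pigment epithelium is a single sheet of pigmented cells that lies against the photoreceptors, between retina and choroid. It recycles the visual chromophore, takes up shed outer segments and secretes proteins towards the retina. When a retina is dissected, fragments of this sheet can stay attached, and pigmented cells also occur in the ciliary body, the iris and the choroid. Melanin is made in melanosomes from tyrosine: Tyr encodes tyrosinase, which starts the pathway, and Dct and Tyrp1 encode the related enzymes of its later steps. Pmel encodes the protein that forms the fibrils on which melanin is laid down, Mlana a small melanosome protein, and Slc45a2 a transporter of the melanosome. Mitf is the transcription factor that drives the melanin genes. Best1 encodes a chloride channel of the basolateral membrane of the pigment epithelium, and Ttr encodes transthyretin, a carrier of thyroid hormone and of the retinol-binding protein, which the pigment epithelium secretes.

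Mitf binds a short DNA word, the M-box, in front of melanin genes. The promoter windows of Tyr, Tyrp1 and Dct are shown because the M-box core TCATGTG, or CACATGA on the other strand, occurs in them. They run from 250 bases before to 50 bases after the transcription start, 5′ to 3′ on the gene's strand, in RefSeq on GRCm38.p6, with the core in capitals. The window of Tyr is chr7:87493463-87493762 on the minus strand, that of Tyrp1 chr4:80833963-80834262 on the plus strand, and that of Dct chr14:118052197-118052496 on the minus strand.
Tyr: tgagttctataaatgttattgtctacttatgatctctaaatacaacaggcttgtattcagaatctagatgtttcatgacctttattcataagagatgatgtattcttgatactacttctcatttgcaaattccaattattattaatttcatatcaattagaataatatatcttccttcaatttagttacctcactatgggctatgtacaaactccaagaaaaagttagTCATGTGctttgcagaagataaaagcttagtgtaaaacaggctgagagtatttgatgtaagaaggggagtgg
Tyrp1: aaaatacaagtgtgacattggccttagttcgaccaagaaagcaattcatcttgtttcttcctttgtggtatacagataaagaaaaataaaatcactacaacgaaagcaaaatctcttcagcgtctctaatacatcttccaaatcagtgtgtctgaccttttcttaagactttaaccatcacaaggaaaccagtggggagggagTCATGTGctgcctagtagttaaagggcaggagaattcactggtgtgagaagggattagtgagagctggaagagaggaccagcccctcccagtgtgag
Dct: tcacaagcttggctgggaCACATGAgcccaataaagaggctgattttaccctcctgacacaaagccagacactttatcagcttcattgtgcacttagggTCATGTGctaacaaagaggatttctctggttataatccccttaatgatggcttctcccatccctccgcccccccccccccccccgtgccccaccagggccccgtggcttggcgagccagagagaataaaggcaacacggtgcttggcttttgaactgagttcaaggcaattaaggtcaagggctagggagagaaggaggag
The core began 22 bases before the start of Tyr and 47 bases before that of Tyrp1. In Dct it began 151 bases before the start and, on the other strand, 232 bases before it. Of the 5 members with a window in the table that was searched, these 3 held the core, and the windows of Best1 and the 3 windows of Mitf did not. Over all 32851 windows of the table, 3.77% held TCATGTG on either strand. The shorter E-box CATGTG, which the M-box core contains, was in 14.2% of windows, among them 1 of Rpe65, and the E-box CACGTG in 7.15%, with none in the windows of these members. A match is a run of letters in the window and was not tested as a binding site.

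The genes lie apart from each other in the mm10 build. Tyr (ENSMUSG00000004651) spans chr7:87424771-87493512, Tyrp1 (ENSMUSG00000005994) chr4:80834123-80851719 and Dct (ENSMUSG00000022129) chr14:118012790-118052244. Pmel (ENSMUSG00000025359) spans chr10:128704195-128720238, Mlana (ENSMUSG00000024806) chr19:29697921-29708448 and Slc45a2 (ENSMUSG00000022243) chr15:11000721-11029233. Mitf (ENSMUSG00000035158) spans chr6:97807052-98021349 and Best1 (ENSMUSG00000037418) chr19:9985174-10001633, and Ttr is ENSMUSG00000061808. Pmel overlaps Dgka by 105 bases and Cdk2 by 837 bases on the opposite strand, and these neighbours were at 1.10 to 1.96 and 0.23 to 0.52 FPKM. Since the strand setting of the counting is not given in the sources used here, reads in those stretches cannot be told apart. The opposite-strand genes that overlap Dct, Mitf and Ttr were at 0 to 0.0867 FPKM.

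Depth and tissue were checked first. The uninjected libraries held 12810558 to 30519417 reads, recovered from the FPKM values (reads per gene scaled to gene length and library size), and the injected libraries 22066668 to 25609242 counts. The summed level of 8 rod photoreceptor genes was 13279 to 15359 FPKM in uninjected and 39753 to 50573 CPM (counts scaled to the same library size) in injected libraries, so the defining genes of the retina were present in all 16. Malat1, a nuclear RNA, ranged from 85.7 to 376.8 FPKM over the uninjected libraries and from 5306 to 6677 CPM over the injected ones. The lens gene Cryaa was at 0 to 0.084 FPKM in uninjected retinas, but at 307 to 963 CPM in 24:5 replicate 1 and the first 2 vehicle replicates, and at 22.6 to 64.2 CPM in the other 3 injected libraries. Wild-type 12-month replicate 1 and vehicle replicate 1 stand apart in melanin genes, as given below. Differences between groups that rest on them are also given without them, for genes still tested then. Correlations are also given without wild-type 12-month replicate 1, but were not run without vehicle replicate 1 alone. In bulk tissue, fewer cells of a type and less RNA per cell cannot be told apart.

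The members fell into 2 ranges in the uninjected retinas. Ttr had a median of 58.8 FPKM over the 10 libraries (35.9 to 109), and no other member exceeded 3.24 FPKM in any library. The order of the other medians was Mitf 1.43, Dct 1.43, Pmel 1.13, Mlana 1.05, Tyrp1 0.882, Tyr 0.393, Best1 0.359 and Slc45a2 0.189 FPKM. Ttr stood clear of Mitf, and Tyrp1 (lowest value 0.659 FPKM) narrowly of Tyr (highest value 0.640 FPKM), while the other pairs of neighbours in that order overlapped over the libraries. Rpe65, the retinoid isomerase that defines the pigment epithelium and is not among the 9, had a range of 5.72 to 22.3 FPKM.

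Among the enzymes of melanin synthesis, Tyrp1 was at 2.88, 0.754 and 1.19 FPKM in wild-type replicates 1, 2 and 3 at 12 months. It was at 0.942, 1.26 and 0.762 FPKM in Elovl2 mutants, and at 1.59, 0.659, 0.772 and 0.822 FPKM in wild-type retinas at 18 months. The groups overlapped, and a single library, wild-type 12-month replicate 1, lay above all others. Dct followed the same order at the top, with 3.24, 1.21 and 1.92 FPKM at 12 months in wild type. In mutants Dct was at 0.904, 1.74 and 1.15 FPKM, and at 18 months at 2.17, 1.01, 0.783 and 1.65 FPKM. Tyr, the first enzyme, did not peak in that library: its wild-type values at 12 months were 0.440, 0.236 and 0.423 FPKM. Tyr was at 0.391, 0.395 and 0.312 FPKM in mutants and at 0.640, 0.157, 0.298 and 0.428 FPKM at 18 months, so its highest and lowest values both came from the oldest group.

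The structural and transport genes of the melanosome were as low. Pmel was at 3.23, 0.576 and 1.58 FPKM in wild-type retinas at 12 months, at 0.646, 0.928 and 1.27 FPKM in mutants, and at 1.45, 1.17, 0.843 and 1.09 FPKM at 18 months. Mlana was at 1.40, 0.326 and 1.35 FPKM, 0.760, 0.841 and 1.02 FPKM, and 1.31, 1.08, 0.901 and 1.15 FPKM in the same order of groups. Both genes were highest in wild-type 12-month replicate 1 and lowest in replicate 2 of the same group. Slc45a2 ranged from 0.0850 to 0.430 FPKM, which came from 4 to 29 reads, so its differences rest on few reads.

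Mitf, the regulator, was the flattest member. It ranged from 1.24 to 1.64 FPKM, a 1.32-fold span over the 10 libraries, against a 4.36-fold span for Tyrp1, 4.14-fold for Dct and 5.60-fold for Pmel. Mitf was at 1.36, 1.45 and 1.38 FPKM in wild type at 12 months, so the library with the most Tyrp1, Dct and Pmel had no more Mitf than its group. The retina also has Mitf's relatives Tfe3 and Tfeb. The summed level of 7 transcription factor genes (Tfe3, Tfeb, Tfec, Otx2, Pax6, Sox9 and Usf1), not all of that family, was 90.3 to 101.5 FPKM. The channel gene Best1 ranged from 0.165 to 0.547 FPKM on 6 to 35 reads, with its top value again in wild-type 12-month replicate 1.

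Ttr varied in another way. It was at 55.0, 49.7 and 73.3 FPKM in wild-type retinas at 12 months, at 61.0, 56.6 and 61.6 FPKM in mutants, and at 103.6, 35.9, 53.4 and 109 FPKM at 18 months. The mutants lay close together, while the 18-month group held both the lowest and the 2 highest values. Rpe65 was highest in the same 2 libraries, at 21.8 and 22.3 FPKM, against 5.72 to 15.1 FPKM in the other 8. Lrat, which encodes the enzyme that stores retinol as ester, was also highest there, at 4.95 and 5.21 FPKM against 1.32 to 2.71 FPKM elsewhere.

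**Figure D1:**
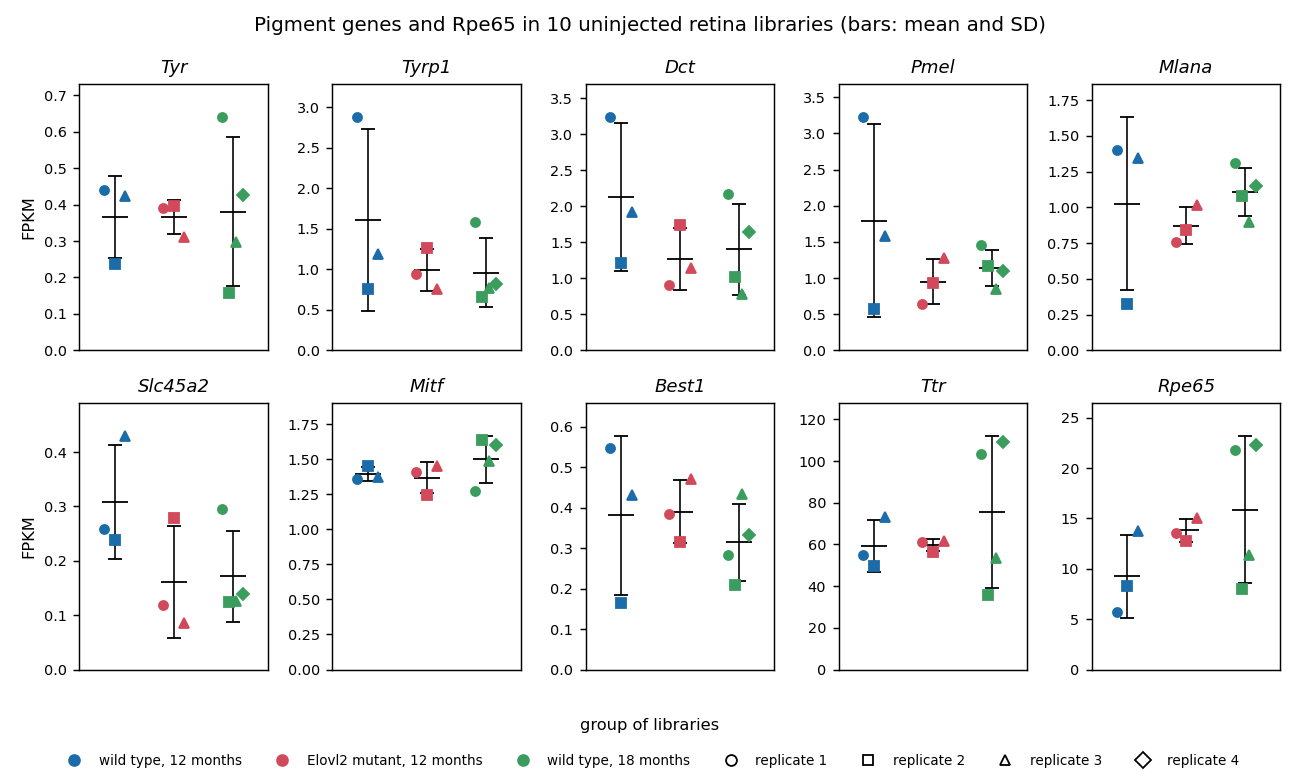
Levels in FPKM (vertical axis, from 0) of the 9 pigment genes and Rpe65 in the 10 uninjected libraries, 1 point per library, by group, with mean and SD as bars and replicate number as symbol. Wild-type 12-month replicate 1 is the highest point for Tyrp1, Dct, Pmel, Mlana and Best1 and the lowest for Rpe65, while Ttr and Rpe65 are highest in the same 2 libraries at 18 months.

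Of the 9 members, 5 (Tyrp1, Dct, Pmel, Mlana and Best1) were highest in wild-type 12-month replicate 1. Of all 13786 genes tested, 7.75% were highest in that library. That share is given for scale only, since Tyrp1 and Mlana reached the mean of 1 FPKM needed for testing through this library. The same library had the lowest Rpe65. The sum of the 6 melanin genes Tyr, Tyrp1, Dct, Pmel, Mlana and Slc45a2 divided by Rpe65 was 2.0 there, and 0.236 to 0.529 in the other 9 libraries. The ratio of Ttr to Rpe65 was 9.62 there and 4.09 to 5.99 in the other 9. In this library the sum of the melanin genes was thus at its highest where the defining gene of the pigment epithelium was at its lowest, although Tyr and Slc45a2 peaked elsewhere.

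Sums of several other marker lists were also highest in that library. The summed level of 6 genes of the ciliary margin and iris (Zic1, Zic2, Msx1, Otx1, Col9a1 and Col9a2) was 18.7 FPKM there and 9.27 to 12.3 FPKM in the other 9. Otx1, a homeobox gene, was at 0.50 FPKM there and 0.02 to 0.13 FPKM elsewhere. The sum of 6 fibroblast genes of choroid and sclera was 5.71 FPKM against 0.971 to 3.01 FPKM, led by Ogn (osteoglycin) at 3.80 against 0.30 to 2.04 FPKM. The sum of 6 endothelial genes was 42.7 FPKM against 28.9 to 33.9 FPKM. The sum of 5 genes of melanocytes of neural crest origin was 4.11 FPKM against 2.67 to 3.57 FPKM, led by Ednrb, an endothelin receptor gene, at 2.43 against 1.26 to 1.94 FPKM. Of these 5, Pax3 was at 0 in all 16 libraries, and Sox10 was lowest in this library, at 0.17 FPKM against 0.29 to 0.70 FPKM. Gfap, a glial filament gene, was also highest in this library, at 13.8 against 3.38 to 7.57 FPKM. The sums of the lens genes (2.21 FPKM) and of macrophage and microglia genes (50.5 FPKM) were not, and peaked in mutant replicate 2 at 2.59 and 61.2 FPKM. The part of these tissues and cells in the melanin values was not tested.

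Whether the members follow the pigment epithelium was asked by correlating each with Rpe65 over libraries, on log2(FPKM + 1), with two-sided permutation tests adjusted over the 9 members. Ttr followed Rpe65 over the 10 uninjected libraries (Pearson r = 0.834, permutation p = 0.0036, adjusted p = 0.0324, and Spearman rho = 0.915, permutation p = 0.00051, adjusted p = 0.00459). It still did without the 2 libraries farthest from the median of Rpe65 (r = 0.932) and after each group was centred on its mean (r = 0.916, permutation adjusted p = 0.00216), while groups of 3 or 4 libraries are too few for a value within each. The centred values were shuffled over all 10 libraries and not within groups, so that p-value is approximate and may be too small. Left out as a group, the 4 libraries at 18 months took r down to 0.635 (exact permutation adjusted p = 0.554), so the strength of the relation rests in part on them. Without the mutants r was 0.871 (exact permutation adjusted p = 0.114), and without the 12-month wild type 0.990 (exact permutation adjusted p = 0.00179). The rank correlation without the 18-month group was rho = 0.886 (exact permutation p = 0.0333, adjusted p = 0.3).

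No melanin gene had a correlation with Rpe65 that passed the test over all 10 libraries. Tyr had r = 0.561 (permutation p = 0.0873, adjusted p = 0.393, rho = 0.455, permutation p = 0.192). Tyrp1 had r = -0.27, Dct r = -0.08 and Pmel r = -0.28, and the other members lay between -0.09 and 0.21, with permutation adjusted p of 0.957 for each of these 7. Without wild-type 12-month replicate 1, left out after its values were seen, Tyr had r = 0.867 (permutation adjusted p = 0.00927) and Ttr r = 0.952 (permutation adjusted p = 0.00135). In the same 9 libraries Tyrp1 had r = 0.552, Dct 0.593, Pmel 0.467 and Mlana 0.594, with permutation adjusted p from 0.217 to 0.309. Thus 1 library set the sign of r for Tyrp1, Dct and Pmel, and decided the call for Tyr.

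Between the members themselves, 36 pairs were correlated in each table. Tyrp1 and Dct, the 2 tyrosinase-related enzymes, gave the only pair with a permutation adjusted p under 0.05 for r in the uninjected libraries (r = 0.895, adjusted p = 0.0191). Their rank correlation was rho = 0.745 (permutation adjusted p = 0.0899), and without the 2 farthest libraries r was 0.686. For Pmel and Mlana the ranks gave rho = 0.939 (permutation adjusted p = 0.00792), with r = 0.786 (permutation adjusted p = 0.116). In the uninjected libraries the 8 pairs with Mitf had r from -0.65 to -0.10, so no melanin gene had a positive r with its regulator's level there. In the injected libraries the sign was the opposite, with r from 0.30 to 0.80 for the 8 pairs with Mitf, and none passed. Without wild-type 12-month replicate 1, 4 of the 36 pairs passed.

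**Figure D2:**
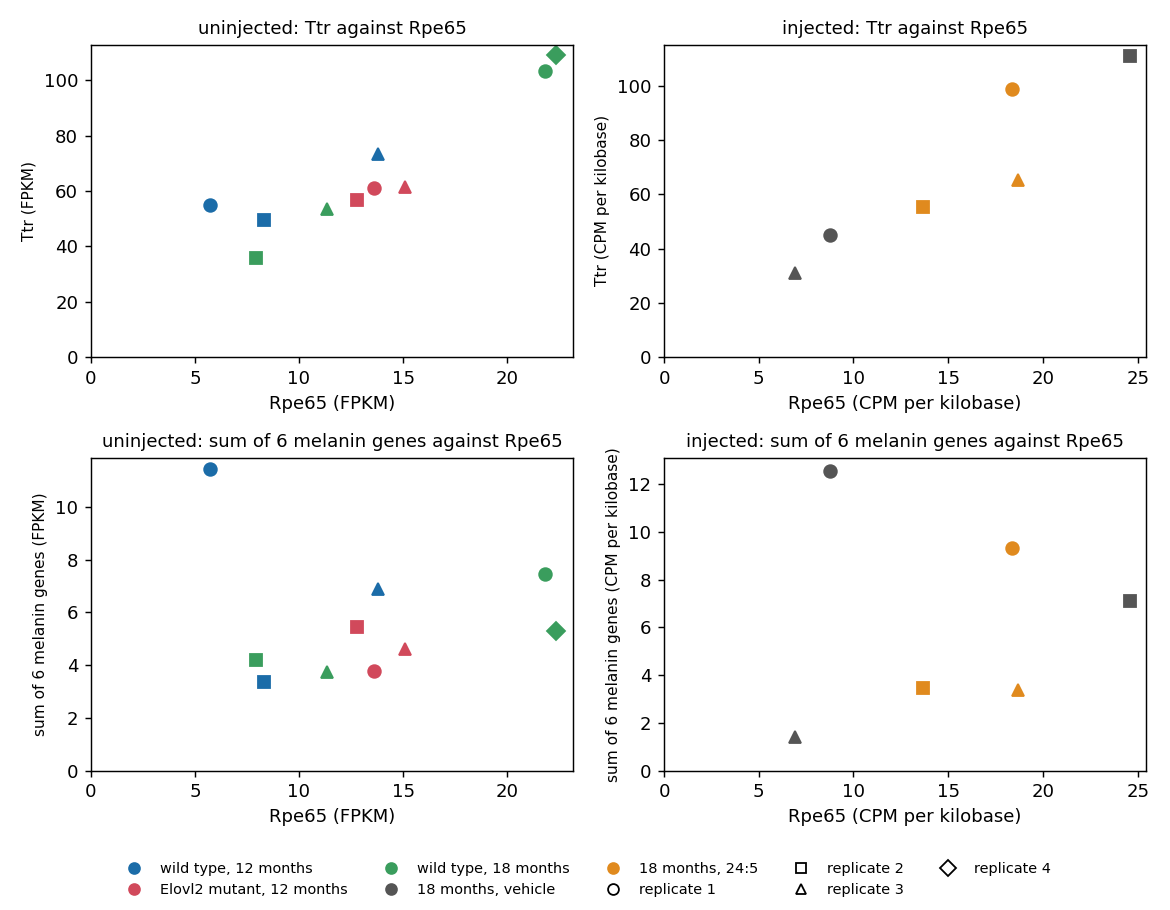
Ttr (top) and the sum of the 6 melanin genes (bottom) against Rpe65, 1 point per library, in FPKM for the 10 uninjected libraries (left) and in CPM per kilobase for the 6 injected libraries (right), with axes from 0. Ttr rises with Rpe65 in both panels, whereas wild-type 12-month replicate 1 and vehicle replicate 1 carry the highest melanin sums, 11.5 FPKM and 12.5 CPM per kilobase, at low Rpe65.

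By a rule that takes the 10 genes most like the members, the genes with the highest r to the mean standardised level of the 6 tested members over the 10 uninjected libraries were taken from 13786. Tmem176b (r = 0.937), Clic1 (0.931), Rcbtb2 (0.916), Slc39a1 (0.898) and Anxa1 (0.896) led, followed by Ckmt1, Gpr37, Ppm1m, Timm23 and Igfbp4 (0.886 to 0.891). Of these 10, all but Ckmt1 were highest in wild-type 12-month replicate 1. Anxa1, which encodes annexin A1, ranged from 8.29 to 20.3 FPKM. Rpe65 had r = 0.084 to the same mean. These likenesses are descriptions over 10 libraries that share that peak.

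In the age comparison, wild-type retinas at 18 months were set against those at 12 months. None of the 6 members tested (Tyrp1, Dct, Pmel, Mlana, Mitf and Ttr) was called by limma, and none of the 9 had groups without overlap. The background was 0% of 13786 genes called and 4.17% without overlap. The mean of Tyrp1 was 0.960 ± 0.423 FPKM (SD, n = 4) in the older retinas, against 1.61 ± 1.12 FPKM (SD, n = 3) in the younger ones, a log2 difference of -0.35 (SE 0.257). The differences of Dct (-0.36, SE 0.255) and Pmel (-0.28, SE 0.279) also pointed down, those of Mlana (0.11, SE 0.195), Mitf (0.06, SE 0.0864) and Ttr (0.22, SE 0.343) up, all with a limma adjusted p of 0.9999 on the log2(FPKM + 1) scale, which understates changes of low genes. From edgeR on the recovered reads, where no pseudocount of that size enters, the log2 fold changes of Tyrp1, Pmel and Dct were -0.76, -0.68 and -0.60 (edgeR adjusted p = 0.9998). Without wild-type 12-month replicate 1 the difference of Dct was -0.12 and that of Pmel turned to 0.08, with limma adjusted p of 0.9999 for each, and Tyrp1 and Mlana then had a mean below 1 FPKM and were not tested. Without replicate 2 of the same group, Pmel was at -0.63, Tyrp1 and Dct both at -0.59 and Mlana at -0.18, with a limma adjusted p of 0.9992 for each. Tyr, Slc45a2 and Best1 had a mean below 1 FPKM and were not tested, and their differences of mean log2(FPKM + 1) were 0.0071, -0.16 and -0.06.

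The genotype comparison set Elovl2 mutants against wild-type retinas, both at 12 months. Again 0 of the 6 members tested were called by limma (background 0% of 13786 genes) and 0 of 9 were without overlap (background 5.97%). The mean of Dct was 1.27 ± 0.431 FPKM in mutants, against 2.12 ± 1.03 FPKM in wild type (SD, n = 3 each), a log2 difference of -0.43 (SE 0.273, limma adjusted p = 0.9998). The fitted log2 differences of the other members were Pmel -0.42 (SE 0.298), Tyrp1 -0.31 (SE 0.275), Mlana -0.06, Mitf -0.02 and Ttr 0.03. Without wild-type 12-month replicate 1, Dct was at -0.18 and Pmel at -0.06. Without replicate 2 of that group, the library lowest in Pmel and Mlana, the differences grew to -0.77 (Pmel), -0.65 (Dct), -0.56 (Tyrp1) and -0.35 (Mlana), with a limma adjusted p of 0.9999 for each. The limma unadjusted p of Pmel, Mlana and Dct was then 0.0071, 0.019 and 0.040, and 402 of the 13728 genes tested had one under 0.05. Leaving out the wild-type library lowest in these genes widens their difference by construction, so these values are a description only. The same omission gave limma unadjusted p of 0.0151 (Pmel), 0.0417 (Tyrp1) and 0.0483 (Dct) for age, with 648 of 13728 genes under 0.05. From edgeR on recovered reads, the genotype differences of Pmel, Dct and Tyrp1 were -0.95, -0.73 and -0.70 (edgeR adjusted p = 0.9999). The 12-month wild-type libraries are shared with the age comparison, so that library bears on both. In the third pairing, 18-month wild type against the mutants, where it plays no part, the differences lay between -0.04 (Tyrp1) and 0.19 (Ttr), with 0 of 6 called by limma (background 0%) and 0 of 9 without overlap (background 4.47%).

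The other genes of the pigment epithelium were counted beside the members, with no test of the difference between the lists. For age, 11 of the 13 tested genes of that list had a positive log2 difference (median 0.17), as had 3 of the 6 members (median -0.11). Of all 13786 genes tested, 6816 had one (median -0.0014). For genotype, 10 of 13 had a positive difference (median 0.11), against 1 of 6 members (median -0.19) and 6573 of all 13786 genes (median -0.0060). Genes of a list that vary together over libraries are not separate observations, so these counts are a description. No gene of the list was called by limma. Lrat (log2 0.65, SE 0.282), Rpe65 (0.68, SE 0.355) and Stra6, the receptor for retinol-binding protein (0.24, SE 0.126), had the smallest p for age, all with a limma adjusted p of 0.9999. Of 13 tested genes of melanosome formation and transport outside the 9, 5 were higher and 8 lower in both comparisons with the shared controls, and 0 were called by limma.

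In the injected retinas Ttr was again the most abundant member. Per kilobase of gene length it ranged from 30.9 to 111 CPM, against 1.35 to 2.04 CPM per kilobase for Mitf, 0.482 to 4.17 for Dct and 0.173 to 3.47 for Tyrp1. The following levels are in CPM, which compare libraries and not genes.

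With vehicle, Tyrp1 measured 9.81, 4.98 and 0.488 CPM in the order of the replicate numbers. With 24:5 it measured 5.17, 2.07 and 2.42 CPM. The vehicle group held both the highest and the lowest value, which were 225 and 11 counts. Dct was at 24.6, 12.0 and 2.84 CPM with vehicle and 17.7, 7.70 and 6.96 CPM with 24:5. Mlana was at 2.31, 1.05 and 0.0887 CPM with vehicle, the last from 2 counts, and at 1.07, 0.338 and 0.286 CPM with 24:5. These 3 genes put the libraries in almost the same order, with vehicle replicate 1 at the top and vehicle replicate 3 at the bottom.

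Tyr was at 2.62, 3.72 and 1.11 CPM with vehicle and 4.33, 1.95 and 1.96 CPM with 24:5. Pmel was at 1.79, 2.34 and 0.887 CPM with vehicle and 4.57, 0.973 and 1.31 CPM with 24:5. Both were highest in 24:5 replicate 1 rather than in vehicle replicate 1. Mitf was at 10.6, 12.6 and 9.63 CPM with vehicle and 12.1, 9.48 and 8.39 CPM with 24:5, again the narrowest span (1.51-fold). Best1 ranged from 0.399 to 1.48 CPM on 9 to 34 counts and Slc45a2 from 0.0872 to 0.508 CPM on 2 to 12 counts, too few to order the libraries.

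Ttr was at 54.7, 135.4 and 37.7 CPM with vehicle and 120.3, 67.5 and 79.7 CPM with 24:5. Rpe65 was at 16.9, 47.5 and 13.4 CPM with vehicle and 35.5, 26.4 and 36.1 CPM with 24:5, so vehicle replicate 1, the library with the most Tyrp1, Dct and Mlana, was the second lowest in both Ttr and Rpe65. The 6 melanin genes summed to 1.43 times Rpe65 per kilobase in that library and to 0.181 to 0.508 times in the other 5. The ratio of Ttr to Rpe65 was 3.50 to 5.38 in all 6.

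**Figure D3:**
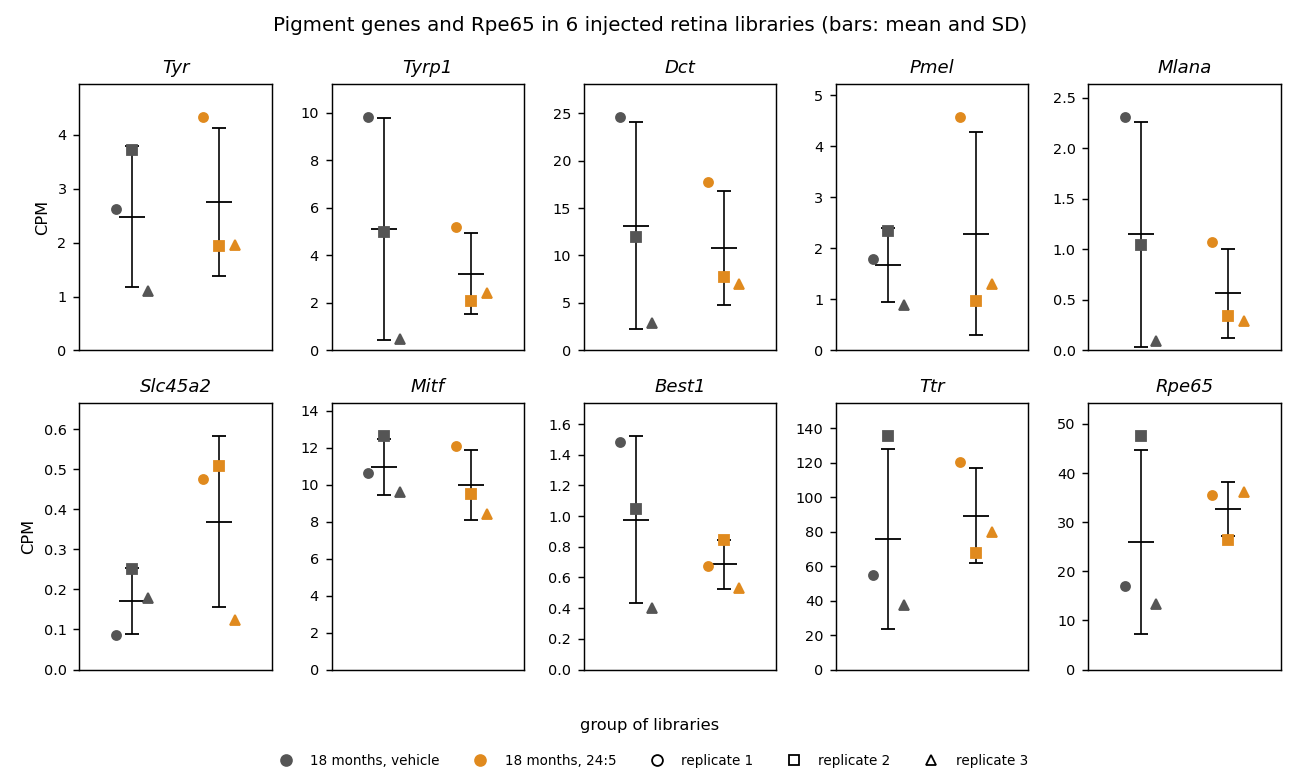
Levels in CPM (vertical axis, from 0) of the 9 pigment genes and Rpe65 in the 6 injected libraries, 1 point per library, by treatment, with mean and SD as bars and replicate number as symbol. Tyrp1, Dct and Mlana run from vehicle replicate 1 at the top to vehicle replicate 3 at the bottom, with the 24:5 libraries between them.

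Of the 9 members, 7 (all but Slc45a2 and Mitf) were lowest in vehicle replicate 3, 7 of the 8 tested, while 20.5% of the 17466 genes tested were lowest there. This share is given for scale only, since several members varied together and Mlana passed the filter on low counts through other libraries. The 3 libraries with the highest lens signal, vehicle replicates 1 and 2 and 24:5 replicate 1, were also the 3 highest for 6 members, all of them tested: Tyr, Tyrp1, Dct, Pmel, Mlana and Mitf. This pattern held for 14.1% of all genes tested, a share given for scale only, since Mlana passed the filter on low counts through those same 3 libraries. The summed level of 10 lens genes was 1259 and 1376 CPM in the 2 vehicle libraries and 503 CPM in the 24:5 library, against 95.2, 97.4 and 42.5 CPM in vehicle replicate 3 and 24:5 replicates 2 and 3. The 6 ciliary margin and iris genes summed to 50.3, 42.4 and 41.2 CPM in those 3 libraries, against 13.4 to 20.6 CPM in the others. The 6 fibroblast genes summed to 53.9, 31.0 and 26.5 CPM there, against 9.42 to 18.5 CPM. The 5 melanocyte genes went the other way, with sums of 19.0, 22.8 and 16.1 CPM in those 3 libraries against 34.5 to 49.3 CPM, led by Ednrb. Irf9, an interferon regulatory factor gene and no tissue marker, was also lower in those 3 libraries, at 61.4, 56.7 and 22.0 CPM against 158 to 228 CPM. The part of these tissues in the members' values was not tested. The fit with the lens genes given below cannot decide it, since the lens signal also differed between the treatments.

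**Figure D4:**
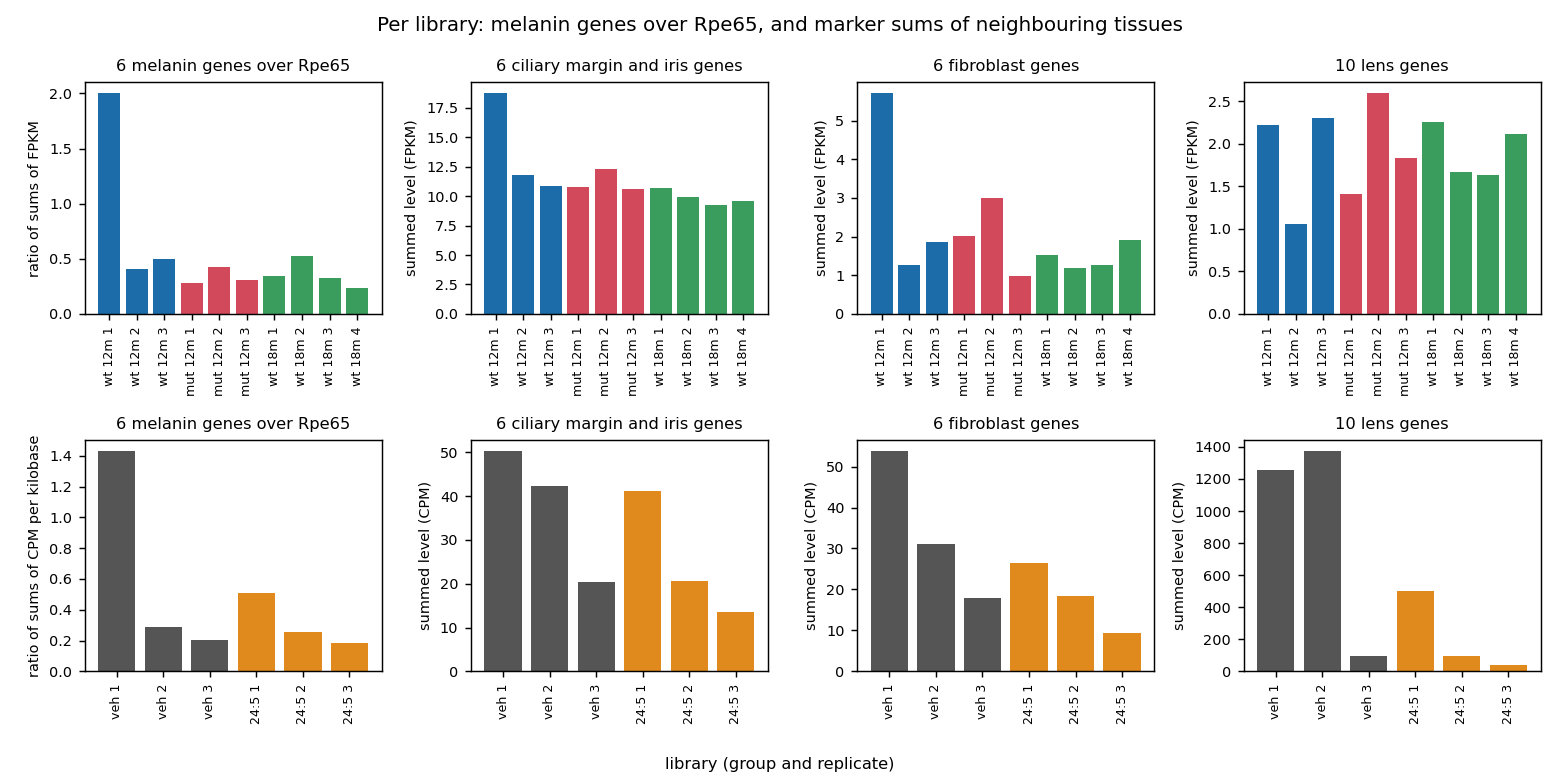
Bars from 0, 1 per library, for the sum of the 6 melanin genes over Rpe65 and for the summed levels of ciliary margin and iris, fibroblast and lens genes, in uninjected (top, FPKM) and injected libraries (bottom, ratio in CPM per kilobase and sums in CPM). Wild-type 12-month replicate 1 and vehicle replicate 1 have the highest ratio and the highest ciliary and fibroblast sums of their tables, whereas the lens sum is high in vehicle replicates 1 and 2 and in 24:5 replicate 1.

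Over the 6 injected libraries Ttr had the closest relation to Rpe65 of the 9 members (r = 0.948, exact permutation p = 0.00833, adjusted p = 0.075, and rho = 0.943, exact permutation p = 0.0167, adjusted p = 0.15), which did not pass after adjustment. Without the 2 libraries farthest from the median r was 0.845 over 4 libraries. Tyr had r = 0.696 and Pmel 0.525, Tyrp1 0.318, Dct 0.296 and Mlana 0.083, none with an exact permutation p under 0.05. Among the members, Tyrp1 and Dct had r = 0.983 (exact permutation p = 0.00278, adjusted over 36 pairs 0.0875), and 0 of the 36 pairs passed. The 10 genes most like the mean of the 8 tested members over these 6 libraries were Lnp1 (r = 0.996), Rreb1 (0.994), 4930503L19Rik (0.993), Rac3, Zfp820, Gm26641, Tmem219, 1500002C15Rik, 1810010H24Rik and Casd1 (0.985). With 6 libraries and 17466 genes these values are a description only. No correlation was run without vehicle replicate 1 alone. The 2 libraries farthest from the median of Rpe65 were vehicle replicates 3 and 1. Over the other 4 libraries Tyrp1 had r = 0.725, Mlana 0.640 and Dct 0.391, while Tyr had 0.601, Pmel 0.452 and Slc45a2 -0.572. With 4 libraries these values are a description only.

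The supplementation comparison set retinas given 24:5 against those given vehicle. No member was called by edgeR among the 8 tested, with Slc45a2 below the filter, and none of the 9 was without overlap. The background was 0.0115% of 17466 genes called (2 genes, both lower) and 11.6% without overlap. The mean of Ttr was 89.2 ± 27.6 CPM after 24:5, against 75.9 ± 52.2 CPM after vehicle (SD, n = 3 each), a log2 fold change of 0.23 (SE 0.543, edgeR adjusted p = 0.997). The log2 fold changes of Mlana (-1.01, SE 0.965), Tyrp1 (-0.66, SE 0.946), Best1 (-0.51, SE 0.478), Dct (-0.28, SE 0.815) and Mitf (-0.14, SE 0.174) pointed down and those of Pmel (0.45, SE 0.646) and Tyr (0.15, SE 0.494) up, with edgeR adjusted p of 0.989 to 0.997. The standard errors of Tyrp1 and Mlana were near 1 log2 unit, so a change of that size was not detectable in these libraries.

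The direction of 5 members turned when the lens signal entered the fit. All 8 tested lens genes were lower with 24:5, so this fit of 6 libraries cannot separate treatment from lens signal. With the mean of the lens genes as a covariate, the log2 fold changes of Tyrp1 (1.20), Dct (1.15), Mlana (0.96), Best1 (0.16) and Mitf (0.06) turned upward, and that of Tyr rose from 0.15 to 0.97 (edgeR adjusted p = 0.153, the lowest of any member under any alternative). Without vehicle replicate 3, the library lowest in most members, Tyrp1 was at -1.19 and Mlana at -1.54, that of Tyr turned to -0.20 and that of Ttr to -0.09 (edgeR adjusted p of 0.578 to 0.98). Without vehicle replicate 1, the library with the most Tyrp1, Dct and Mlana, Tyrp1 was at 0.23 and Dct at 0.54. Among 15 tested genes of the pigment epithelium outside the 9, 10 were higher with 24:5 (median 0.05). Of the 8 members, 3 were higher (median -0.21), and of all 17466 genes 8878 (median 0.0028). Of these 15, 0 were called by edgeR, and Efemp1, which encodes a matrix protein, had the smallest p (log2 -0.62, SE 0.170, edgeR adjusted p = 0.459). Of 18 tested melanosome genes outside the 9, 7 were higher and 11 lower with 0 called, and Rab32 (log2 -1.06, SE 0.317, edgeR adjusted p = 0.459) and Gpnmb (log2 -1.29, SE 0.401, edgeR adjusted p = 0.586) had the smallest p. All 4 tested ciliary margin and iris genes and 4 of 5 fibroblast genes were lower with 24:5, with 0 called by edgeR.

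**Figure D5:**
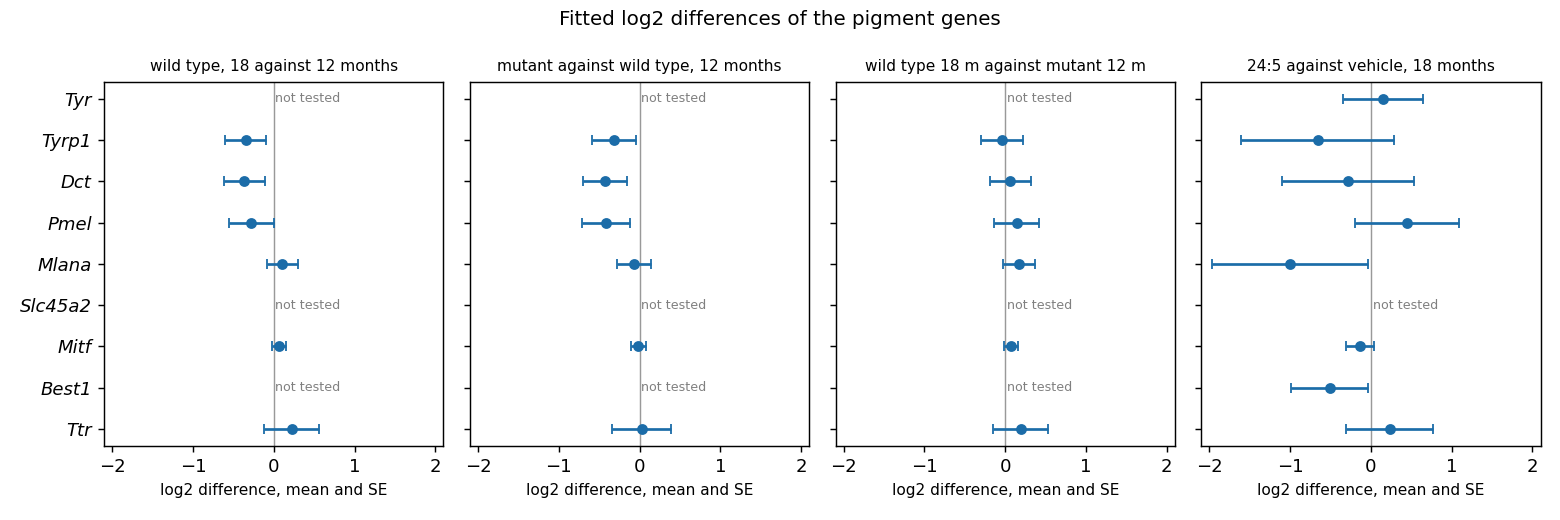
Fitted log2 differences with their SE (horizontal axis) of the members in the 4 comparisons, from limma on log2(FPKM + 1) in the first 3 panels and from edgeR on counts in the last. Every interval of 2 SE includes 0, and the widest are those of Tyrp1, Mlana and Dct after supplementation.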

How the data were processed

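Both tables hold bulk retina RNA-seq. In the uninjected table the authors deposited FPKM values, per the file headers. In the injected table they deposited raw counts per gene, per the file headers and values. The labels' protocols describe poly(A)-selected, strand-marking libraries. HISAT2 2.2.1, featureCounts 2.0.6, DESeq2 1.42.0 and the mm10 build are named, without role, per the submitters' processing notes. The sources used here do not give the annotation release or strand setting.

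FPKM times length gave whole reads for 100% of values above 0 (within 0.02). Symbols matched 99.2% of identifiers in the count table. FPKM values were tested with limma 3.58.1 (limma-trend, robust) in R 4.3.3 on log2(FPKM + 1), for 13786 genes with a mean of at least 1 FPKM and 3 groups in 1 fit. For the counts, the quasi-likelihood test of edgeR 4.0.16 with TMM was run on 17466 genes that passed filterByExpr. All p-values are two-sided and were adjusted by Benjamini-Hochberg over all genes tested, with a threshold of 0.05. CPM are counts scaled to TMM-normalised library sizes, and CPM per kilobase use the gene lengths of the FPKM table. The tables were never tested against each other. Correlations used 100000 resamples, or all orders for up to 8 libraries. Procedures were tested on simulated data.

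The 9 members and the lists beside them were chosen with earlier results of these data known. One gene of the ciliary margin and iris list is not reported here and was left out of its sums. Named genes are the members, up to 3 genes with the smallest p from each list in a comparison, Rpe65, Cryaa and Malat1, and the 10 genes most like the members in each table. Otx1, Ednrb, Anxa1's level, Pax3, Sox10, Gfap and Irf9 were singled out after their values were seen. Alternatives were other pseudocounts, filters, normalisations and tools, a replicate block, covariates and left-out libraries. Same-numbered libraries were not treated as pairs. No 2 replicates were identical or alike within counting noise (chi-square per degree of freedom 3.06 to 42.7).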

Additional observations from a re-analysis of the deposited data

Results flagged for a closer look

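Slc45a2, the melanosome transporter gene, was at 0.296 FPKM (13 reads) in wild-type 18-month replicate 1 and at 0.125 to 0.140 FPKM in the other 3 libraries of that group. The gap between the highest library and the next, divided by the range of the group, was 0.913, above Dixon's critical value for 4 libraries. No other member passed that value, nor did Rpe65. The group of 4 is the only one large enough for the check, and about 1 in 20 groups passes by chance.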

How the results depend on the processing

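No member was called under any alternative: of 339 alternative values of a member's log2 difference, 0 passed the threshold, and the lowest adjusted p was 0.153. The sign turned in 29 of them, counted only for members tested in the main fit of that comparison. The replicate block turned Ttr to -0.0020 for age and -0.030 for 18-month wild type against mutants, and Malat1 as a covariate turned Ttr to -0.064 for genotype. The lens covariate turned Tyrp1 to 1.20, Dct to 1.15, Mlana to 0.96, Best1 to 0.16 and Mitf to 0.058. With 1 library left out, the ranges that crossed 0 were -0.63 to 0.078 (Pmel), -0.18 to 0.15 (Mlana) and -0.0020 to 0.52 (Ttr) for age, and -0.041 to 0.023 (Mitf) and -0.088 to 0.19 (Ttr) for genotype. For 18-month wild type against mutants they were -0.18 to 0.061 (Tyrp1), -0.080 to 0.21 (Dct) and -0.030 to 0.50 (Ttr). For supplementation they were -0.35 to 0.56 (Tyr), -1.19 to 0.23 (Tyrp1), -0.84 to 0.54 (Dct), -0.55 to 0.81 (Pmel) and -0.086 to 0.95 (Ttr). The cause was not tested.

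Over all genes, limma called 0 for age (503 with an unadjusted p under 0.05), against 9 by DESeq2 and 1 by edgeR on recovered reads, 1 with Malat1 as a covariate and 4 without a filter. For genotype it called 0 (302), against 4 without a filter and 0 by DESeq2 and edgeR. For 18-month wild type against mutants it called 0 (295), against 11 by DESeq2, 0 by edgeR, 1 with Malat1 and 1 without a filter. For supplementation edgeR called 2 genes, against 245 by DESeq2, 179 with the lens covariate, 85 without a filter and 88 with a replicate block. With 1 library left out it called 0 to 105, the most without vehicle replicate 3. Whether the replicate numbers pair the injected samples is not given in the labels, and 3 pairs are too few to decide it. Deviations of same-numbered libraries had correlations of -0.467 to 0.514 over 9 uninjected and -0.288 to 0.519 over 3 injected pairs. The block called 0 genes in the 3 uninjected comparisons and 88 for supplementation, against 2 without it.

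The number of members that followed Rpe65 in the uninjected libraries was 1, and 0 without the mutants and 0 without the 18-month group. Without the 12-month wild type Ttr still passed (r = 0.990, exact permutation adjusted p = 0.00179). The number was 2 without the 2 farthest libraries, which were wild-type 12-month replicate 1 and 18-month replicate 4. It was also 2 without wild-type 12-month replicate 1 alone, where 4 pairs of members passed instead of 1, both chosen after seeing the data. The share of all genes that follow Rpe65 as closely was not computed. Of 90 alternative correlations, 24 turned sign. Without the 2 farthest libraries r was 0.781 (Tyrp1), 0.578 (Dct), 0.518 (Pmel), 0.271 (Slc45a2) and 0.504 (Best1), and in injected libraries -0.572 (Slc45a2). Without 12-month wild type it was 0.528, 0.691, 0.342, 0.338 and 0.195 for the same 5, and without replicate 1 of that group 0.552, 0.593, 0.467, 0.110 and 0.423. Centred by group it was 0.246 (Dct), 0.495 (Slc45a2) and 0.0488 (Best1). Without the 18-month group it was -0.0186 (Tyr), -0.0062 (Mlana) and 0.0202 (Mitf), without the mutants 0.0935 (Slc45a2), and with a pseudocount of 0.1 it was 0.0354 (Best1). Slc45a2, Best1 and Mlana rest on 2 to 53 reads or counts per library, which limits what they can show.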

Other observations

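Ttr is also known from the choroid plexus and the liver. Of 6 genes of those tissues, the plasma protein gene Serpina1a was at 0 in all 16 libraries, and Alb, the albumin gene, reached 0.0271 FPKM and 0.0846 CPM. Kl, which encodes klotho, was at 0.187 to 0.268 FPKM and 1.63 to 2.99 CPM. Kcne2, a potassium channel subunit gene, was at 26.8 to 42.2 FPKM and 24.1 to 60.4 CPM, and Folr1, a folate receptor gene, at 2.81 to 7.75 FPKM and 8.34 to 19.5 CPM.

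After supplementation, all 8 genes of macrophages and microglia had a negative log2 fold change (median -1.13), 7 of them with an unadjusted p under 0.05 and 0 called by edgeR. Of all 17466 genes tested, 1154 had an unadjusted edgeR p under 0.05. Cd74, the invariant chain of antigen presentation, had the smallest p (log2 -2.54, SE 0.367, edgeR adjusted p = 0.197). Their summed level was 575, 397 and 221 CPM with vehicle and 155, 126 and 87.8 CPM with 24:5, without overlap between the groups. Of all genes tested singly, 11.6% were without overlap. Within each treatment, the macrophage and microglia sum put the libraries in the same order as Dct and Mlana did, and no other member had that order in both treatments. The part of these cells in the members' values was not tested.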
